A study of Mus musculus with 15 samples.

Results

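The RNA levels of 9 genes were followed through induction of ERK signalling and its reversal in mouse epiblast-like cells (EpiLCs), cultured cells that resemble the epiblast soon after implantation. The genes are the 3 members of the growth arrest and DNA damage-inducible 45 family (Gadd45a, Gadd45b and Gadd45g), the tumour suppressor p53 (Trp53) and its feedback inhibitor Mdm2, and 4 target genes of p53 (Cdkn1a, Ccng1, Phlda3 and Trp53inp1). They were chosen by name, with earlier results of these data known. Each was found by its Ensembl identifier among the 52636 genes of the count table. All 9 reached the expression filter, as did 13451 genes in all.

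All cells were of an embryonic stem cell line, CRAFR26, that carries a form of the kinase c-RAF switched on by 4-hydroxytamoxifen (4OHT), and 2 clones of it, clone 4 and clone 8, were used. Cells were taken through 48 h of EpiLC culture with bFGF (12 ng/ml), Activin A (20 ng/ml) and XAV939 (1 µM), and every group, the uninduced one included, was then given the FGF receptor inhibitor PD17 (250 nM) for 2 h. Uninduced cells (0h, n = 3) were compared with cells given 4OHT at 250 nM for 2 h (2h, n = 4) or 4 h (4h, n = 4), and with cells given 4OHT for 4 h and then a MEK inhibitor for 2 h (rev, n = 4). Each group held 2 libraries of each clone except 0h, which held 1 of clone 4 and 2 of clone 8 because 1 library was discarded by the authors in quality control. Each clone is 1 derivation of the line, and no group was given time in culture without 4OHT, so hours of culture and hours of induction cannot be told apart. In rev vs 4h, likewise, the 2 further hours and the MEK inhibitor cannot be told apart. Nothing in the labels says that the 2 libraries of a clone came from separate cultures, so the p-values measure the spread between these libraries, which may be partly technical.

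The protein p53 is a transcription factor that binds paired decamers in DNA and raises genes for cell cycle arrest, repair and death. Its level is held down by Mdm2, a ubiquitin ligase that is itself a p53 target, so that the pair form a negative feedback loop. Gadd45 proteins are small acidic stress proteins that bind the kinase Map3k4 (MEKK4), upstream of p38 and JNK, and also PCNA and the Cdk1-cyclin B complex, and they have been tied to active DNA demethylation. Gadd45a is a known p53 target, whereas Gadd45b and Gadd45g are raised mainly by cytokine, growth factor and developmental signals.

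The sequence upstream of each start site was read from RefSeq promoter windows (GRCm38.p6, the build of the deposited data; 250 bases before to 50 after the start), which were found for 8 of the 9 genes, with 2 windows for Cdkn1a. The stretches upstream of the Gadd45 genes are shown because these 3 paralogs moved in different directions. That of Cdkn1a is shown because it holds a match to the p53 element. Each is printed 5′ to 3′ on the strand of the gene and ends before the more upstream of the RefSeq and GENCODE M21 starts. In the Gadd45 sequences, capitals mark the octamer bound by POU factors (ATTTGCAT), the E-box (CACGTG), the CCAAT box (CCAAT) and the TATA box (TATAAA), on either strand. In the Cdkn1a sequence they mark a match to the consensus of the p53 response element, with the spacer between its decamers included. A decamer that departs from the consensus is not marked, so the capitals need not show the whole of a bound site.
Gadd45a, chr6:67037458-67037657, minus strand: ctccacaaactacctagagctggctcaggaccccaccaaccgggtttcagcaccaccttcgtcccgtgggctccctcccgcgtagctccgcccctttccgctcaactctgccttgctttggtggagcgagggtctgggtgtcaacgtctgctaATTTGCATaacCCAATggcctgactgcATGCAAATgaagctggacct
Gadd45b, chr10:80929841-80930072, plus strand: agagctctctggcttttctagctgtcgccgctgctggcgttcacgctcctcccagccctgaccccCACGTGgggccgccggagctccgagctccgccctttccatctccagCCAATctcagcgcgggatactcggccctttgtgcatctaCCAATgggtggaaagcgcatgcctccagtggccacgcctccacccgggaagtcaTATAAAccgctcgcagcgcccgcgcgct
Gadd45g, chr13:51846425-51846674, plus strand: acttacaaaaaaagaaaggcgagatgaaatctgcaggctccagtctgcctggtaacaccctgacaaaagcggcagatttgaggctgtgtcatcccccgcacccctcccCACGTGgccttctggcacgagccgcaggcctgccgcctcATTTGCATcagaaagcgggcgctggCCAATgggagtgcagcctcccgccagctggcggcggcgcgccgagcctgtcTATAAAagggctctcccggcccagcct
Cdkn1a, chr17:29090729-29090975, plus strand: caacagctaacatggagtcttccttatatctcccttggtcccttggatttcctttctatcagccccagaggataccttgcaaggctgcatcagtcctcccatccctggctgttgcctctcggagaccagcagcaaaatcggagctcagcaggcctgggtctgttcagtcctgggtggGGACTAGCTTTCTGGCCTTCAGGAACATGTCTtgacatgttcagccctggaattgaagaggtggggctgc

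The octamer was found 2 times upstream of Gadd45a and once upstream of Gadd45g, and not in the window of Gadd45b. Of all 32851 promoter windows of this length, 1.74% held it. The E-box was in the windows of Gadd45b, Gadd45g and, 11 to 16 bases after the start, Trp53, and in 7.15% of all windows. The TATAAA string of the TATA box was in the windows of Gadd45b and Gadd45g, and in 13.6% of all windows. The Trp53 window held it only on the opposite strand, at -248 to -243 from the start. A CCAAT box was in the windows of the 3 Gadd45 genes, Trp53, Mdm2 and Ccng1 (37.4% of all). The p53 response element, searched by its consensus on both strands with up to 13 bases between the decamers, was in the first window of Cdkn1a (0.0731% of all windows), and not in the other members' windows. The 3 other motifs searched, the AP-1 site (TGANTCA, 7.81% of all windows), the cAMP element (TGACGTCA, 1.79%) and the CArG box of serum response elements (1.63%), were in no member's window. None of the 8 motifs was in the Phlda3 window or the second Cdkn1a window. The motifs were chosen after the windows had been read, they do not overlap one another in the sequences shown, and a match is a string of letters rather than a measured binding site.

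Levels are CPM, the count of a gene scaled to its library's total with TMM factors. Differences were tested with edgeR's quasi-likelihood F test over all 15 libraries with the clone as a covariate, and a gene was called at a Benjamini-Hochberg adjusted p under 0.05 over the 13451 tested genes. Changes are given on the log2 scale, each with its SE (standard error) from the fit. Values of single libraries are given in the order clone4_1, clone4_2, clone8_1, clone8_2, and at 0h in the order clone4_1, clone8_1, clone8_2. The level per kilobase of exon, which allows genes to be compared, was highest for Ccng1 at 0h (50.9 ± 8.11 CPM per kb, SD, n = 3). It lay between 22.2 and 28.4 CPM per kb for Trp53, Trp53inp1, Phlda3, Mdm2 and Gadd45g, whose ranges overlapped, apart from that of Trp53 (21.7 to 22.5) lying below that of Gadd45g (23.8 to 35.7). Cdkn1a followed at 11.2 ± 1.93, Gadd45a at 2.29 ± 0.652 and Gadd45b at 0.496 ± 0.187 CPM per kb (SD, n = 3).

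The 4h libraries stood apart from the rest. They held 1552022 to 6658950 counts against 8667880 to 13004556 in the other groups, and mitochondrial genes took 7.21% to 12.4% of their counts against 2.67% to 6.98%. Their floor of detection, the level of 3 counts, reached 1.83 CPM. The summed level of 6 epiblast markers was 681 to 761 CPM at 4h, 1160 to 1399 at 0h, 1079 to 1290 at 2h and 949 to 1051 in rev, with none of the 6 at 0. The sum hides both directions, since 2 of the 6 were called higher and 4 lower in 4h vs 0h (20.5% and 18.9% of all tested genes). The summed level of 4 neural markers was 45.8 to 65.6 CPM at 4h and 15.9 to 26.0 elsewhere, with Neurog2 at 0 in every 4h library. Of the 3 neural markers tested, 2 were called higher and 1 lower in 4h vs 0h. Markers of primitive endoderm (5), mesoderm (5) and fibroblasts (4) summed to at most 15.4 CPM in any library, with Postn at 0 in all. The part of depth, mitochondrial share and these marker levels in the 4h results was not tested. Scaling by total counts in place of TMM put the median gene at -0.73 in 4h vs 0h, at -0.57 in 4h vs 2h, at 0.45 in rev vs 4h, at -0.18 in 2h vs 0h and at -0.30 in rev vs 0h. Relative to that median, no member changed sign in these 5 comparisons. Both scalings apply a factor to each whole library, so this was nearly fixed in advance and is no further check. Each direction below is relative to the bulk of genes. In bulk libraries, fewer cells of a type and less RNA per cell cannot be told apart. As a check of the labels, the summed level of the ERK output genes Spry2, Spry4, Dusp6 and Egr1 was 9.29 to 18.2 CPM at 0h, 593 to 1277 at 2h, 136 to 465 at 4h and 86.8 to 154 in rev.

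The 3 Gadd45 genes followed 3 different courses. Gadd45a rose from a mean of 4.04 CPM at 0h to 7.69 CPM at 2h, was at 7.54 CPM at 4h and fell to 4.19 CPM in rev. Gadd45g fell at each step of induction and recovered in part, and the low-level Gadd45b was higher at 2h and in rev than at 0h.

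Gadd45a (chr6:67035096-67037457, minus strand, ENSMUSG00000036390) had 2.92, 5.21 and 4.00 CPM at 0h. It had 6.02, 6.01, 9.07 and 9.64 CPM at 2h and 9.77, 6.17, 8.20 and 6.03 CPM at 4h. In rev it had 3.29, 3.41, 4.65 and 5.40 CPM. Every 2h and 4h library thus lay above every 0h library, and every rev library below every 4h library. The rise was 1.00 (adjusted p = 0.00407, SE 0.20, edgeR) in 2h vs 0h and 0.97 (adjusted p = 0.00141, SE 0.22) in 4h vs 0h. From 4h to rev it fell by 0.85 (adjusted p = 0.0032, SE 0.20), and rev differed from 0h by 0.12 (adjusted p = 0.745, SE 0.21). Between 2h and 4h the difference was -0.03 (SE 0.20). The counts behind these levels were 16 to 36 per library at 4h, and the exons share 337 bases with the antisense gene E230016M11Rik, whose reads cannot be told apart from those of Gadd45a where strand is not used. With all libraries thinned to the depth of the shallowest, the differences were 0.67 in 2h vs 0h (adjusted p = 0.423), 0.61 in 4h vs 0h (adjusted p = 0.261) and -0.62 in rev vs 4h (adjusted p = 0.261). By total count scaling they were 0.81, 0.21 and -0.42, with adjusted p of 0.257, 0.627 and 0.356. The 2h vs 0h call was lost without 0h clone4_1 (0.91, adjusted p = 0.0547). In clone 8 alone, 4h vs 0h was 0.63 (adjusted p = 0.0782) and rev vs 4h was -0.51 (adjusted p = 0.169).

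Gadd45b (chr10:80930073-80932204, plus strand, ENSMUSG00000015312) was the member with the fewest reads, with 3 to 43 counts per library. With thinned libraries it did not reach the expression filter and was not tested. Its levels were 1.08, 0.802 and 0.485 CPM at 0h and 3.06, 2.92, 0.872 and 2.30 CPM at 2h. At 4h they were 2.44, 1.73, 1.14 and 1.13 CPM, and in rev 2.03, 2.58, 1.69 and 1.87 CPM. Library clone8_1 of 2h lay within the 0h range while the other 3 lay above it, and every rev library lay above every 0h library. The level rose in 2h vs 0h (1.37, SE 0.32, adjusted p = 0.0103) and in rev vs 0h (1.22, SE 0.33, adjusted p = 0.0182). Its difference of 0.81 (adjusted p = 0.106, SE 0.39) in 4h vs 0h was not called, with 3 to 7 counts in each 4h library. Without 0h clone4_1 neither was called (adjusted p = 0.0929 and 0.118), and the rev vs 0h call was lost also without 0h clone8_2 or rev clone8_2 and without the clone covariate (adjusted p = 0.0516). With total count scaling they were 1.16 (adjusted p = 0.166) and 0.88 (adjusted p = 0.234), and neither was called in clone 4 alone (adjusted p = 0.113 and 0.216) or clone 8 alone (adjusted p = 0.162 and 0.0936).

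Gadd45g (chr13:51846678-51848468, plus strand, ENSMUSG00000021453) had the largest change of the 9 genes in 4h vs 0h. It had 41.9, 27.9 and 30.2 CPM at 0h and 11.8, 7.07, 9.24 and 14.2 CPM at 2h. At 4h it had 4.89, 4.69, 5.69 and 3.77 CPM, and in rev 10.9, 6.81, 12.8 and 10.1 CPM. The ranges of 0h, 2h and 4h did not touch, and rev lay above 4h and within the range of 2h apart from its lowest library. It fell by 1.65 in 2h vs 0h (adjusted p = 9.17e-05, SE 0.22), by 1.14 more in 4h vs 2h (adjusted p = 0.000794, SE 0.23) and by 2.79 in 4h vs 0h (adjusted p = 7.55e-08, SE 0.25), a 6.92-fold decrease. It rose by 1.07 in rev vs 4h (adjusted p = 0.00189, SE 0.24), and rev remained 1.72 below 0h on the log2 scale (-1.72, SE 0.22, adjusted p = 4.41e-05). These calls held in every fit that left out 1 library. The counts behind the Gadd45g levels at 4h were 8 to 25 per library. With thinned libraries the rise in rev vs 4h was 0.74 (adjusted p = 0.13).

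**Figure D1:**
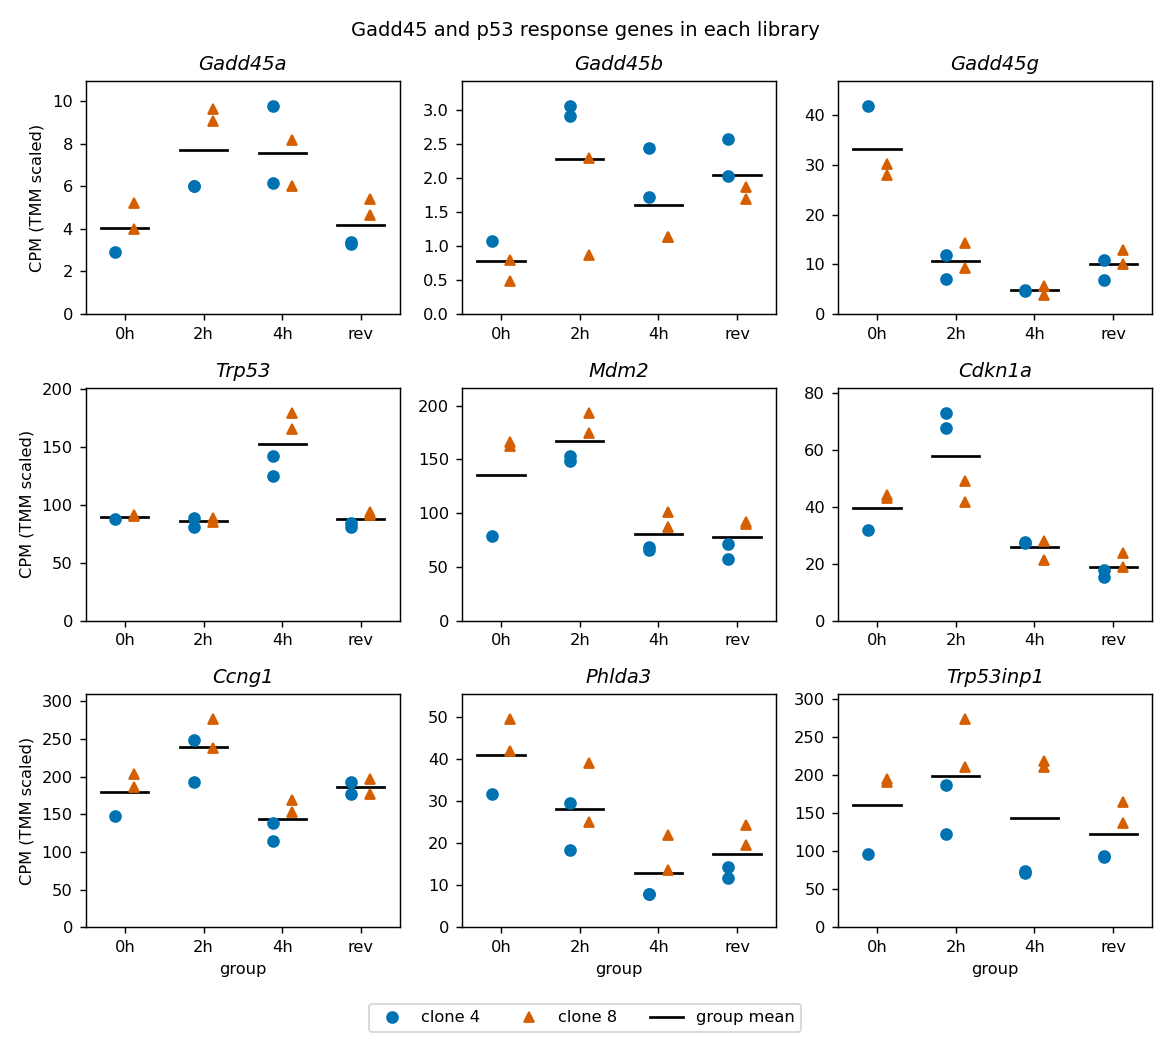
Level of each of the 9 genes in CPM (vertical axes, from 0) in every library, by group (horizontal axes), with clone 4 as circles, clone 8 as triangles and the group mean as a line. Gadd45g steps down from 33.3 CPM at 0h to 4.76 CPM at 4h, Trp53 is high in the 4 libraries of 4h only, and the group means of the p53 targets lie lower at 4h than at 2h.

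Trp53 and Mdm2 moved in opposite directions between 2h and 4h. Trp53 RNA was flat at 2h, rose at 4h in both clones and was back at its 0h level in rev, while Mdm2 rose slightly at 2h and fell at 4h, and its difference between 4h and rev was not called.

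Trp53 (chr11:69580359-69591873, plus strand, ENSMUSG00000059552) had 87.9, 90.7 and 90.9 CPM at 0h and 88.4, 81.0, 88.3 and 85.0 CPM at 2h. It had 125, 142, 165 and 179.8 CPM at 4h and 81.1, 84.8, 91.4 and 93.9 CPM in rev. All 4h libraries lay above all the others, with clone 8 above clone 4. The rise was 0.83 in 4h vs 2h (adjusted p = 2.06e-07, SE 0.09) and 0.79 in 4h vs 0h (adjusted p = 1.62e-06, SE 0.09), and the fall from 4h to rev was -0.80 (adjusted p = 5.95e-07, SE 0.09). The differences in 2h vs 0h (-0.04, SE 0.09) and rev vs 0h (-0.01, SE 0.09) were not called. Under total count scaling, where the median gene itself was lower at 4h, Trp53 differed by 0.06 in 4h vs 0h (adjusted p = 0.866), 0.31 in 4h vs 2h (adjusted p = 0.336) and -0.40 in rev vs 4h (adjusted p = 0.248). The rise is therefore a rise relative to other genes.

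Mdm2 (chr10:117688875-117710758, minus strand, ENSMUSG00000020184) had 78.6 CPM in the 0h library of clone 4 and 166 and 163 CPM in those of clone 8. It had 148, 153, 174 and 194 CPM at 2h, 65.4, 68.1, 101 and 87.5 CPM at 4h, and 71.6, 57.3, 91.4 and 89.6 CPM in rev. The 2h libraries lay above all 4h and rev libraries, and the single clone 4 library of 0h lay among the latter. Mdm2 rose in 2h vs 0h by 0.45 (adjusted p = 0.0291, SE 0.12). That call rested on 0h clone4_1, without which the difference was 0.23 (adjusted p = 0.37), and it was lost also without either clone 4 library of 2h and in clone 8 alone (0.16, adjusted p = 0.591). It was lost with the replicate block (0.44, adjusted p = 0.0529), with only the 2 groups compared (adjusted p = 0.0708), with thinned libraries (adjusted p = 0.172), without the clone covariate (0.30, adjusted p = 0.562) and under total count scaling (0.26). The fall from 2h to 4h was -1.08 (adjusted p = 2.21e-07, SE 0.11), a 2.11-fold decrease. It was below 0h at 4h (-0.63, SE 0.12, adjusted p = 0.000334) and in rev (-0.68, SE 0.12, adjusted p = 0.000716), and in clone 4 alone these were -0.23 and -0.28. Clone 4 has 1 library at 0h, which is assumed there to vary like the other groups, so the adjusted p of 0.248 and 0.27 in clone 4 alone cannot show that the difference is absent. Without the clone covariate rev vs 0h was -0.81 (adjusted p = 0.0599). Rev and 4h differed by -0.05 (adjusted p = 0.761, SE 0.11).

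The 4 p53 target genes were each called lower in 4h vs 2h, beside 19.2% of all tested genes, and differed in what came before and after. In clone 8 alone the fall of Trp53inp1 was -0.18 and was not called. Ccng1 rose at 2h and recovered in rev, Cdkn1a and Phlda3 were lower in rev than at 0h, and Trp53inp1 differed chiefly between the clones.

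Cdkn1a (chr17:29090976-29100727, plus strand, ENSMUSG00000023067) encodes the cyclin-dependent kinase inhibitor p21. The match to the p53 element printed above lies just upstream of the first of its 2 RefSeq starts. The window of the second start, at chr17:29093769, held no match. Levels of Cdkn1a were 31.8, 43.2 and 44.1 CPM at 0h and 67.9, 73.2, 41.7 and 49.3 CPM at 2h. At 4h they were 27.5, 27.6, 21.2 and 27.9 CPM, and in rev 17.8, 15.3, 23.8 and 18.9 CPM. At 2h both clone 4 libraries lay far above the clone 4 library of 0h, whereas the clone 8 libraries spanned the clone 8 levels of 0h. The fitted difference over both clones in 2h vs 0h, 0.53 (adjusted p = 0.107, SE 0.19), was not called, and was called without 2h clone8_1 (0.70, adjusted p = 0.0331). It fell by 1.15 in 4h vs 2h (adjusted p = 5.96e-05, SE 0.18), and was below 0h at 4h (-0.62, SE 0.19, adjusted p = 0.0149) and in rev (-1.08, SE 0.19, adjusted p = 0.000962). The 4h vs 0h call was lost without 0h clone8_1 and without 4h clone8_1 (largest adjusted p = 0.0521), in clone 4 alone (-0.21, adjusted p = 0.445, with 1 library at 0h) and with thinned libraries (-0.57, adjusted p = 0.239). With thinning, rev vs 0h was -0.99 (adjusted p = 0.113). The difference of The difference of rev vs 4h was -0.45 (adjusted p = 0.0608, SE 0.18), called without any 1 of 0h clone4_1, 2h clone8_1, 4h clone8_1 and rev clone8_1 (-0.44 to -0.61). The exons share 273 bases with the antisense gene AC167363.2.

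Ccng1 (chr11:40748552-40755311, minus strand, ENSMUSG00000020326) encodes cyclin G1, which recruits the phosphatase PP2A to Mdm2. It had 147, 203 and 187 CPM at 0h, 193, 248, 276 and 238 CPM at 2h, 114, 138, 168 and 153 CPM at 4h, and 176, 192, 177 and 197 CPM in rev. The 2h libraries lay above those of 4h, and the rev libraries lay above those of 4h and within the range of 0h. Its rise in 2h vs 0h was 0.46 (adjusted p = 0.0104, SE 0.11), and it fell by 0.74 in 4h vs 2h (adjusted p = 4.99e-06, SE 0.10) and rose by 0.39 in rev vs 4h (adjusted p = 0.00482, SE 0.10). Without 0h clone4_1 the first of these was 0.39 (adjusted p = 0.127), and it was lost also without the clone covariate (adjusted p = 0.102), in clone 8 alone (adjusted p = 0.131) and under total count scaling (0.26, adjusted p = 0.825). The difference of -0.28 in 4h vs 0h (adjusted p = 0.0402, SE 0.11) was called, and was lost when any 1 of 5 libraries was left out (0h clone8_1, 4h clone4_1, 4h clone8_2, rev clone4_1, rev clone8_2), where the adjusted p reached 0.154, and without the clone covariate (adjusted p = 0.0745) or in either clone alone (adjusted p = 0.313 and 0.123). In clone 8 alone the rise in rev vs 4h was 0.22 (adjusted p = 0.244).

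Phlda3 (chr1:135766119-135769136, plus strand, ENSMUSG00000041801) encodes a pleckstrin homology domain protein that competes with the kinase Akt for membrane lipids. It had 31.6, 49.5 and 42.0 CPM at 0h and 29.6, 18.5, 24.9 and 39.2 CPM at 2h. It had 7.94, 7.90, 21.9 and 13.6 CPM at 4h and 14.2, 11.7, 24.2 and 19.6 CPM in rev. Every 4h and rev library lay below every 0h library. The difference in 2h vs 0h was -0.42 (adjusted p = 0.23, SE 0.20), and -0.62 without 2h clone4_1 (adjusted p = 0.0425). It fell by 1.18 in 4h vs 2h (adjusted p = 0.000142, SE 0.20) and was 3.05-fold lower at 4h than at 0h (-1.61, SE 0.21, adjusted p = 1.1e-05). In rev it was below 0h (-1.15, SE 0.20, adjusted p = 0.00103), and rev vs 4h was 0.46 (adjusted p = 0.088, SE 0.20), called without any 1 of 2h clone4_1, 2h clone8_1 and 4h clone8_1 (0.47 to 0.71) and under total count scaling (0.90, adjusted p = 0.0138). Without the clone covariate rev vs 0h was -1.24 (adjusted p = 0.053).

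Trp53inp1 (chr4:11156431-11174379, plus strand, ENSMUSG00000028211) encodes a stress protein of p53-dependent death and autophagy. It had 95.8 CPM in the clone 4 library of 0h and 195 and 191 CPM in those of clone 8. At 2h it had 123, 187, 274 and 211 CPM, at 4h 74.5, 71.6, 218 and 211 CPM, and in rev 92.6, 94.0, 138 and 165 CPM. In every group both clone 8 libraries lay above the clone 4 libraries, with the widest gap at 4h. The only call among the group comparisons was the fall in 4h vs 2h (-0.61, SE 0.18, adjusted p = 0.0139). That call was lost without the clone covariate (-0.46, adjusted p = 0.433) and in clone 8 alone (-0.18, adjusted p = 0.434). The differences in 2h vs 0h (0.51, SE 0.19, adjusted p = 0.135), 4h vs 0h (-0.09, SE 0.19) and rev vs 0h (-0.20, SE 0.19) were not called, and the first was called without 2h clone8_2 (0.65, adjusted p = 0.0484).

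**Figure D2:**
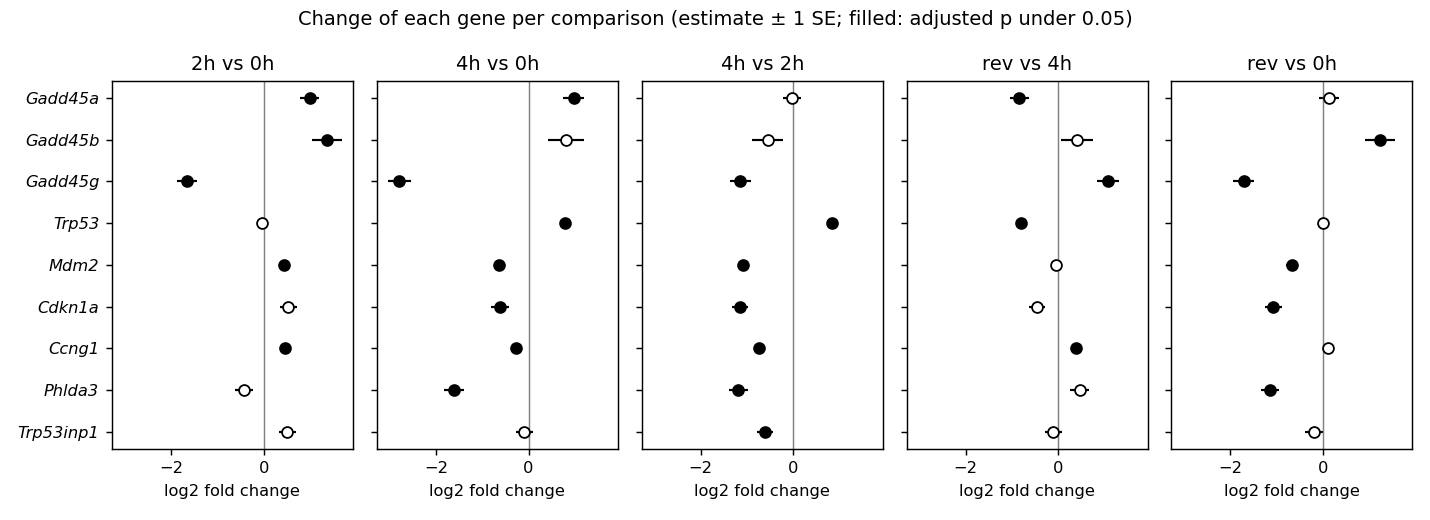
The log2 fold change of each gene (horizontal axes) with 1 SE in the 5 group comparisons, with filled points for adjusted p under 0.05. Trp53 (0.83) is the 1 gene of the 9 called higher in 4h vs 2h, where 6 genes were called lower.

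The 9 genes, like the lists below, were chosen with earlier results of these data known. The shares of all genes set beside their counts, here and below, thus give a scale and no test. Counted over the 9 genes, 4 were called higher and 1 lower in 2h vs 0h, against 3.98% and 2.46% of all tested genes. Without 0h clone4_1, 1 of these 5 calls, Gadd45g, was left, and calls over all genes went from 867 to 308. In 4h vs 0h, 2 were higher and 5 lower (20.5% and 18.9% of all genes), and in 4h vs 2h 1 was higher and 6 lower (19.7% and 19.2%). In rev vs 4h, 2 were higher and 2 lower (15.1% and 15.6%), and in rev vs 0h 1 was higher and 4 lower (6.49% and 4.66%). Of the calls over all genes, the higher ones made up 52.0% in 4h vs 0h and, from 2h to 4h, 50.6%, against 7.11% and 9.09% under total count scaling, and 49.2% in rev vs 4h and 58.2% in rev vs 0h, against 88.0% and 31.9%. Of the 9 genes, that scaling called 0 higher and 6 lower in 4h vs 0h, 0 higher and 7 lower in 4h vs 2h, 3 (Gadd45g, Ccng1 and Phlda3) and 0 in rev vs 4h, 0 and 4 in rev vs 0h and 0 and 1 in the step from 0h to 2h. The comparisons share libraries, so the counts are not independent of one another. The median change of the 9 genes was 0.46 in 2h vs 0h, -0.28 in 4h vs 0h, and -0.74 in the step from 2h to 4h, with medians of 0.01, 0.03 and -0.01 over all tested genes. In rev vs 4h it was -0.05 and in rev vs 0h -0.20, both beside 0.02 over all tested genes.

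A list of 32 other p53 target genes, 31 of them tested, was followed as well. With TMM scaling, more of the 31 were called lower than higher in each group comparison but 2h vs 0h. At 2h, 2 of them passed as higher than at 0h and 2 as lower (3.98% and 2.46% of all genes). The risers were Pmaip1 (1.27, SE 0.13, adjusted p = 1.38e-06), which encodes the death-promoting BH3-only protein Noxa, and the polo-like kinase gene Plk3 (0.94, SE 0.14, adjusted p = 0.000136). Pidd1 (-0.73, SE 0.11) and the repair gene Xpc (-0.63, SE 0.18) fell, and the Xpc call was lost when any 1 of 5 libraries was left out (0h clone4_1, 0h clone8_2, 2h clone4_1, 2h clone4_2, 2h clone8_1). Pmaip1 went from 20.7 ± 5.44 CPM at 0h (SD, n = 3) to 48.2 ± 3.03 at 2h and 58.0 ± 6.02 at 4h, and to 21.8 ± 1.67 in rev (SD, n = 4 each). Its course was thus up and back, like that of Gadd45a.

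In 4h vs 0h, 4 of the 31 were called higher and 14 lower, beside 20.5% and 18.9% of all genes, with a list median of -0.21 beside 0.03. Pmaip1 (1.54, SE 0.13), Plk3 (0.89, SE 0.14) and the nuclear body gene Pml (0.59, SE 0.09) had the largest rises above 5 mean CPM. Dcxr (-1.56, SE 0.23), the ribosomal protein paralog Rps27l (-1.25, SE 0.14) and Bbc3 (-1.17, SE 0.23), which encodes the BH3-only protein Puma, had the largest falls. In 4h vs 2h, 3 were higher and 11 lower (19.7% and 19.2% of all genes), with a median of -0.08 beside -0.01. The largest falls were those of Rps27l (-1.66, SE 0.13), Plk2 (-1.38, SE 0.15) and Dcxr (-1.18, SE 0.22), and Pml (0.59, SE 0.08), Tigar (0.54, SE 0.13) and Pidd1 (0.40, SE 0.10) rose. Under total count scaling, which lowers the median gene at 4h, 1 was higher and 19 lower in 4h vs 0h and 0 were higher and 16 lower in 4h vs 2h, and Pml turned to -0.13 in 4h vs 0h and Tigar and Pidd1 to -0.03 and -0.13 in 4h vs 2h. With thinned libraries 3 were higher and 7 lower in 4h vs 0h.

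In rev vs 4h, 3 of the 31 were called higher and 10 lower (15.1% and 15.6% of all genes), with a median of -0.25 beside 0.02. Pmaip1 fell by 1.41 (adjusted p = 1.65e-08, SE 0.12), and the polymerase gene Polk (-0.81, SE 0.17) and Tigar (-0.64, SE 0.13) fell also. Rps27l rose by 1.52 (adjusted p = 2.09e-08, SE 0.13), and Dcxr (0.70, SE 0.22) and Aen (0.51, SE 0.10) rose also. The Dcxr call was lost without 4h clone4_1, 4h clone4_2 or rev clone4_1, and with DESeq2 (adjusted p = 0.066), and Polk (-0.35) and Tigar (-0.21) were not called under total count scaling. In rev vs 0h, 1 was higher and 13 lower (6.49% and 4.66% of all genes), with a median of -0.36 beside 0.02. Polk (-1.27, SE 0.18), Bbc3 (-1.21, SE 0.22) and the sestrin gene Sesn2 (-0.91, SE 0.12) had the largest falls, and Plk3 (0.43, SE 0.14, adjusted p = 0.0438) was the 1 that rose, a call that 10 of the 15 leave-one-out fits did not make (all but those without 2h clone8_1, 2h clone8_2, 4h clone4_1, 4h clone4_2 or rev clone4_2; adjusted p up to 0.242). Under total count scaling 6 were higher and 1 lower in rev vs 4h, and 0 were higher and 8 lower in rev vs 0h. In clone 4 alone 6 and with thinned libraries 7 were lower in rev vs 0h.

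**Figure D3:**
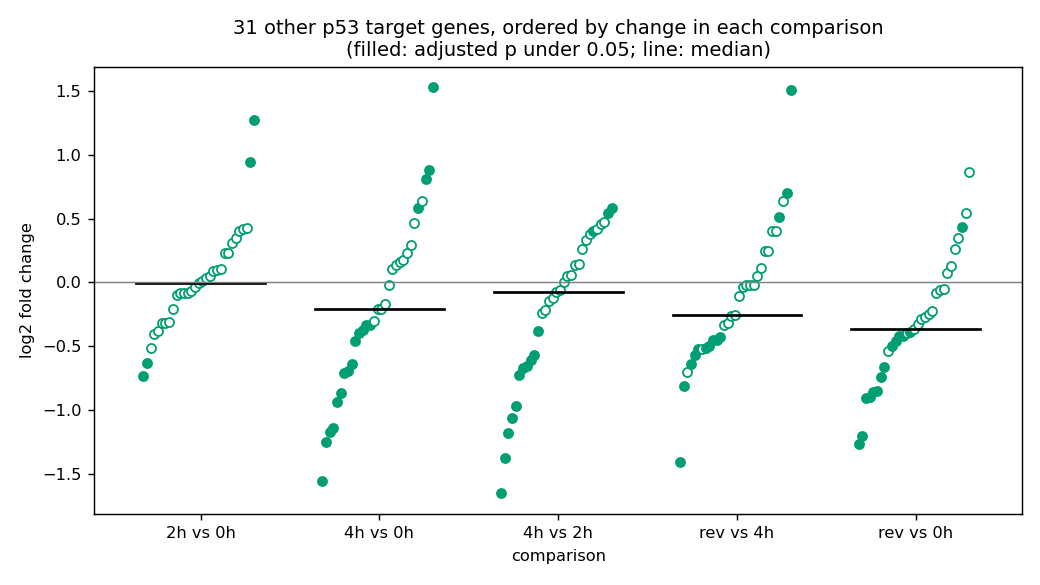
The log2 fold change (vertical axis) of the 31 other p53 target genes that were tested, ordered within each of the 5 comparisons, with filled points for adjusted p under 0.05 and a line at the list median. The median is near 0 in 2h vs 0h (-0.0007) and -0.36 in rev vs 0h.

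In 4h vs 0h, the p53 regulators were called at shares near those of all genes. Of 16 genes that act on p53, none was called in 2h vs 0h by edgeR, beside 3.98% of all genes called higher and 2.46% lower. There, 3 had an unadjusted p under 0.05, DESeq2 called 0, and without 2h clone8_2 edgeR called 2 higher. In 4h vs 0h, 4 were higher and 3 lower, where 20.5% and 18.9% of all tested genes were called. Hipk2, a kinase that phosphorylates p53, rose from 12.1 ± 2.60 CPM at 0h (SD, n = 3) to 35.8 ± 7.54 at 4h (SD, n = 4; 1.64, SE 0.17, adjusted p = 3.1e-07) and fell by 0.97 in rev vs 4h (adjusted p = 5.79e-05, SE 0.15). Atr (0.54, SE 0.12) and the deubiquitinase gene Usp7 (0.49, SE 0.10) were higher in 4h vs 0h, and under total count scaling they were -0.20 and -0.23. Rpl5 (-0.85, SE 0.11) and Rpl11 (-0.81, SE 0.16), ribosomal proteins that bind Mdm2, and the checkpoint kinase gene Chek2 (-0.51, SE 0.17) fell in 4h vs 0h, and Chek2 was not called without 0h clone4_1, 4h clone4_1 or 4h clone4_2. Rpl5 rose by 0.70 (SE 0.10) and Rpl11 by 0.49 (SE 0.15) in rev vs 4h, the latter not called without 4h clone4_2, 4h clone8_2, rev clone4_1 or rev clone8_1. Mdm4, the paralog of Mdm2, fell by 0.48 in rev vs 4h (SE 0.11). In all, 3 rose and 3 fell (Sirt1 by -0.43, SE 0.12) in 4h vs 2h, beside 19.7% and 19.2% of all genes. In rev vs 4h, 2 rose and 4 fell, beside 15.1% and 15.6%. In rev vs 0h, 1 rose (Hipk2, 0.67) and 1 fell (Mdm4, -0.40), beside 6.49% and 4.66%. Neither Hipk2 nor Mdm4 was called in rev vs 0h without 0h clone4_1, nor Mdm4 without 0h clone8_2, rev clone4_1, rev clone8_1 or rev clone8_2.

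Among 11 partners of the Gadd45 proteins, called changes were at most 0.58 in size on the log2 scale. The JNK kinase gene Map2k4 rose in 2h vs 0h (0.42, SE 0.11, adjusted p = 0.0246), the 1 call of that comparison, beside 3.98% of all genes called higher. That call was lost when any 1 of 5 libraries was left out (0h clone4_1, 0h clone8_1, 0h clone8_2, 2h clone4_2, 2h clone8_1). In 4h vs 0h, Map2k4 (0.47, SE 0.11) and Map2k7 (0.41, SE 0.12) were higher, and Mapk14 (-0.58, SE 0.11), which encodes p38α, the thymine glycosylase gene Tdg (-0.35, SE 0.13) and Pcna (-0.28, SE 0.10) were lower. Map2k4 and Map2k7 were -0.26 and -0.34 under total count scaling. Map2k7 was not called without 0h clone8_2, and Tdg and Pcna were not called without any 1 of 0h clone4_1, 0h clone8_1 and 4h clone4_1, nor Tdg without 4h clone8_2 or rev clone8_2 or with DESeq2 (-0.33). Cdk1 (-0.52, SE 0.12), Ccnb1 (-0.51, SE 0.10) and Tdg (-0.47, SE 0.12) fell in 4h vs 2h, where 4 were lower in all (19.2% of all genes). Pcna (0.43, SE 0.09), Tdg (0.40, SE 0.12) and Ccnb1 (0.29, SE 0.10) rose in rev vs 4h, of which Pcna alone was called without 4h clone4_1, Tdg was lost also without 4h clone8_2, and Ccnb1 also without 4h clone4_2, rev clone4_2 or rev clone8_2. In rev vs 0h, Map2k4 was higher (0.52, SE 0.11), and Map3k4 (-0.57, SE 0.13) and Mapk14 (-0.40, SE 0.11) were lower, with none of the 3 called without 0h clone4_1, nor Mapk14 without rev clone4_2 or rev clone8_2.

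In the fit to all 15 libraries, the clones differed in level for 6 of the 9 genes. In clone 8 vs clone 4, 5 were called higher and 1 lower, against 10.4% and 8.11% of all tested genes. Trp53inp1 (0.97, SE 0.13, adjusted p = 0.000142), Phlda3 (0.70, SE 0.14, adjusted p = 0.00189), Mdm2 (0.53, SE 0.08, adjusted p = 9.63e-05), Gadd45a (0.46, SE 0.14, adjusted p = 0.0273) and Ccng1 (0.23, SE 0.07, adjusted p = 0.0284) were higher in clone 8. Gadd45b was lower (-0.66, SE 0.22, adjusted p = 0.0418). Trp53 itself differed by 0.16 (adjusted p = 0.0807, SE 0.06), Gadd45g by 0.09 (SE 0.16) and Cdkn1a by -0.04 (SE 0.13). Of the 31 other p53 target genes, 18 were higher and 1 was lower in clone 8, with a median of 0.43 beside 0.00 over all tested genes, and leaving out each library in turn gave 15 to 19 higher. The largest of the 18, named after their values were seen, were Ephx1 (0.82), Sesn2 (0.79) and Btg2 (0.71), and the 1 lower gene was Sfn (-1.37), a call that 13 of the 15 leave-one-out fits did not make. Under total count scaling 2 of the 9 genes were called, and 5 of the 31 were higher and 1 lower. With thinned libraries 9 of the 31 were higher. Leaving out 1 library gave 3 to 5 calls among the 9 genes, and so never 6. The smallest number, 3, was called without each of 0h clone4_1, 2h clone4_1 and 2h clone8_1. DESeq2 did not call Gadd45b (-0.66, adjusted p = 0.0642). The Gadd45b call was lost in 11, the Gadd45a call in 9 and the Ccng1 call in 6 of the 15 leave-one-out fits.

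The course over the 4 groups differed between clones for 1 of the 9 genes, Cdkn1a (joint test of 3 interaction terms in edgeR, adjusted p = 0.0182), against 3.18% of all tested genes. In 2h vs 0h its difference was 1.15 in clone 4 (SE 0.20) and 0.06 in clone 8 (SE 0.15), while both clones fell in 4h vs 2h, by 1.35 (SE 0.16) in clone 4 and 0.90 (SE 0.16) in clone 8. The clone 4 value of 0h is 1 library, assumed to vary like the other groups, and the test could not be run without it. Without 0h clone8_2, 2h clone4_2, 2h clone8_1, rev clone4_2 or rev clone8_1 the joint test gave adjusted p between 0.0532 and 0.0658. Mdm2 had a similar pair of values in 2h vs 0h, 0.94 (SE 0.15) in clone 4 and 0.16 (SE 0.12) in clone 8, and its joint test was not called (adjusted p = 0.118).

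Trp53inp1 was the 1 gene of the 9 with a called clone difference in the steps 4h vs 2h (0.91, SE 0.22, adjusted p = 0.0264) and rev vs 4h (-0.86, SE 0.22, adjusted p = 0.0408), against 3.14% and 2.8% of all tested genes. From 2h to 4h it changed by -1.09 (SE 0.16) in clone 4 and -0.18 (SE 0.16) in clone 8, and from 4h to rev by 0.35 (SE 0.16) in clone 4 and -0.50 (SE 0.16) in clone 8. Neither call held when any 1 of the 4 libraries of 4h was left out. The first was lost also without 2h clone4_2 or 2h clone8_2 (adjusted p up to 0.134), and the second also without 0h clone8_1, 0h clone8_2 or any rev library (adjusted p up to 0.208).

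**Figure D4:**
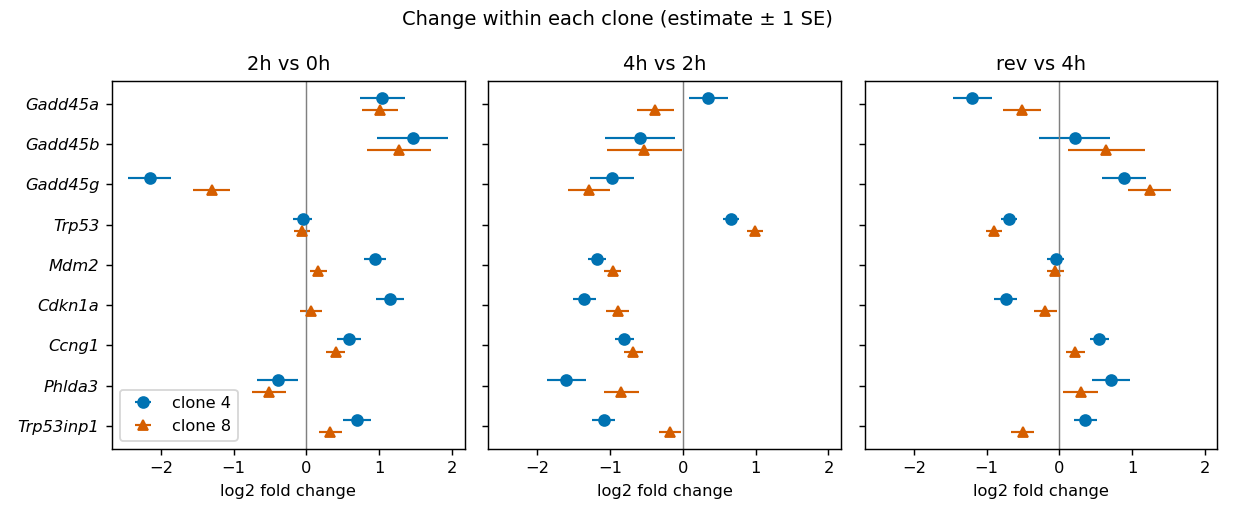
The log2 fold change of each gene (horizontal axes) with 1 SE within clone 4 (circles) and clone 8 (triangles) in 3 successive steps. Cdkn1a separates in 2h vs 0h (1.15 and 0.06), and Trp53inp1 in 4h vs 2h (-1.09 and -0.18).

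Genes whose log2 CPM followed a member most closely over the 15 libraries were listed among 8142 or 8143 candidates with a mean of at least 5 CPM, with 2 per member. Pearson's r is given as a description, since the libraries share depth and the 4h group stands apart. For Gadd45a they were the centromere chaperone gene Hjurp (r = 0.89) and Pmaip1 (r = 0.88), for Gadd45b Pald1 (r = 0.91) and Tlnrd1 (r = 0.89), and for Gadd45g Palm (r = 0.95) and Cgn (r = 0.94). For Trp53 they were Ncoa3 (r = 0.99) and Sohlh2 (r = 0.98). Mdm2 was followed by 2 genes of the p53 target list, Btg2 (r = 0.95) and Plk2 (r = 0.93). For Cdkn1a they were Pim3 (r = 0.86) and Cdca4 (r = 0.82), for Ccng1 Rbm39 (r = 0.95) and Ptp4a1 (r = 0.94), for Phlda3 Cdc42bpg and Gtf2ird1 (both r = 0.97), and for Trp53inp1 Ppp1r15b (r = 0.96) and March5 (r = 0.95).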

How the data were processed

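Libraries were made with a NEBNext kit from 1 µg of RNA after ribosomal RNA had been removed, per the labels. The deposited values are raw counts per gene, whole numbers with no normalization; per the submitters' processing notes, bcl2fastq 2.19.1, STAR 2.5.3a and the mm10 build were used. The counting tool, annotation and use of strand are not given in the sources used here. Of 52636 identifiers, 52403 had a name in GENCODE M21, the source of positions. Total counts per library ran from 1552022 to 13004556, and the 9 members had 706 to 15738 counts together in a library. The floors (3 counts) cover counting error only, whereas the SEs of the fit and the SDs also hold the spread between libraries. Reads carried no molecular identifiers.

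Tests were run with edgeR 4.0.16 under R 4.3.3 (filterByExpr by group, minimum count 10 and minimum total count 15; TMM; group plus clone; quasi-likelihood F test with robust estimation, two-sided; Benjamini-Hochberg adjustment, threshold 0.05). Clone differences used a model with a mean for each group in each clone. Within groups, same-clone libraries differed by more than counting error (chi-square per degree of freedom 5.46 to 174, on total counts without TMM). None was counted as a duplicate. The value also holds differences in composition and library preparation, so it cannot tell separate cultures from separate libraries of 1 culture. The steps were also run on simulated data with far fewer changed genes than were called at 4h, so that run cannot vouch for the 4h results. The members and gene lists were chosen with earlier results of these data known. All 9 members are named; of the other lists, called genes with a mean of at least 5 CPM, at most 3 risers and 3 fallers per list and comparison; and the 2 genes most correlated with each member. Alternatives were DESeq2 1.42.0, total count scaling, no filter, no clone covariate, a replicate block, leaving out abundant and mitochondrial genes, thinning, only the groups compared, leaving out each library, and, added after the data were seen, an older quasi-likelihood fit and each clone alone. Promoter windows were from RefSeq (GRCm38.p6).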

Additional observations from a re-analysis of the deposited data

Results flagged for a closer look

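Cdkn1a at 4h was 21.2 CPM in clone8_1, far below the other 3 libraries of that group, which lay between 27.5 and 27.9 CPM. It was the 1 outlier among 27 sets of 4 libraries tested with Dixon's criterion, which by chance flags about 1 set in 20. Cdkn1a also differed between the clones over the 4 groups by the joint interaction test (edgeR, adjusted p = 0.0182). Trp53inp1 differed between the clones in rev vs 4h (clone 8 minus clone 4, -0.86 on the log2 scale) and in 4h vs 2h (0.91), by tests of the difference itself.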

How the results depend on the processing

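The number of the 9 members called kept within 1.5 times its value in 4h vs 2h (7) under every setting run. Elsewhere it moved as follows. Total count scaling gave 1 call in 2h vs 0h, 2 between clones, and 0 in the joint clone by time test and in both clone difference tests. Without the expression filter there were 8 calls in 2h vs 0h and 2 in clone by time. Without the clone covariate there were 3 in 2h vs 0h and 2 in rev vs 0h. Thinning to the shallowest library gave 2 in 2h vs 0h, 2 in rev vs 4h and 3 in rev vs 0h. It gave 2 in clone by time and 0 in the clone difference of 4h vs 2h. Gadd45b did not reach the filter after thinning and was not tested there. The clone difference of rev vs 4h had 0 calls without the abundant and mitochondrial genes and 0 with the older quasi-likelihood fit. Clone 8 alone had 2 calls in 2h vs 0h, and clone 4 alone 4 in 4h vs 0h and 3 in rev vs 0h. Leaving out 1 library gave 1 to 6 calls in 2h vs 0h, 5 to 7 in 4h vs 0h, 4 to 6 in rev vs 4h, 4 to 5 in rev vs 0h, 3 to 5 between clones, 0 to 2 in clone by time and 0 to 1 in each clone difference. The cause was not tested. Clone by time was not run without 0h clone4_1. The fits of each clone alone and the older quasi-likelihood fit were chosen after seeing the data. Among the alternatives for single members, 1241 of 1411 kept the direction and call, 118 lost a call, 25 gained 1 and 27 turned.

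Directions turned mostly for differences that were not called. Under total count scaling these were Gadd45b in 4h vs 0h (-0.011), Mdm2 (0.35) and Trp53inp1 (0.31) in rev vs 4h, Gadd45a (-0.21) and Ccng1 (-0.21) in rev vs 0h, and the called Pml (-0.13), Atr (-0.20), Usp7 (-0.23), Map2k4 (-0.26) and Map2k7 (-0.34) in 4h vs 0h and Tigar (-0.025), Pidd1 (-0.13), Atr (-0.044), Usp7 (-0.17) and Trp53inp2 (-0.13) in 4h vs 2h. Mdm2 was 0.037 in rev vs 4h without the filter, and with thinning Gadd45a was -0.0074 in rev vs 0h and Cdkn1a 0.048 between clones. In clone 8 alone Trp53inp1 was 0.15 in 4h vs 0h, Trp53 0.029 and Ccng1 -0.059 in rev vs 0h, and Phlda1 -0.36 in 4h vs 2h and 0.18 in rev vs 4h. In clone 4 alone Gadd45a was 0.35 in 4h vs 2h and Trp53inp1 0.35 in rev vs 4h. Over the fits that left out 1 library, the value ran from -0.097 to 0.012 for Trp53 in 2h vs 0h, -0.049 to 0.041 for Trp53 in rev vs 0h, -0.22 to 0.14 for Gadd45a in 4h vs 2h and -0.12 to 0.022 for Mdm2 in rev vs 4h, and, between clones, from -0.021 to 0.27 for Gadd45g and -0.15 to 0.053 for Cdkn1a.

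Same-numbered libraries of a clone correlated in their deviations from the group means (0.05 to 0.44) no more than those with other numbers (0.08 to 0.44), so the numbers were not taken to pair libraries. With the number as a replicate block, 4 members were called in 2h vs 0h, 7 in 4h vs 0h, 7 in 4h vs 2h, 4 in rev vs 4h and 5 in rev vs 0h, with the Mdm2 call in 2h vs 0h lost (0.44, adjusted p = 0.0529). Over all genes, calls in 2h vs 0h went from 867 to 266 under total count scaling, 427 without the clone covariate, 276 with thinning, 1499 without the abundant and mitochondrial genes, 1305 without the filter and 1327 with the older fit. In rev vs 0h they went from 1500 to 759, 793, 434 and 2296 under the first 4 of these, and to 2934 with only the groups compared. With thinning they went from 5300 to 2370 in 4h vs 0h, from 5237 to 2317 in 4h vs 2h and from 4140 to 1724 in rev vs 4h.

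The 4h depth limits Gadd45b (3 to 7 counts), Gadd45g (8 to 25) and Gadd45a (16 to 36).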

Other observations

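Of 7 relatives of the members that were tested, 3 (Phlda1, Phlda2 and Cdkn1c) were called higher in 2h vs 0h, beside 3.98% of all genes, and 4 were not called. The 3 were called higher in 4h vs 0h and rev vs 0h as well. Of the 7, 4 were called higher and 1 lower in 4h vs 0h, beside 20.5% and 18.9% of all genes. In rev vs 0h, 3 were higher and 1 lower, beside 6.49% and 4.66%. Between the clones all 7 were called, 5 higher and 2 lower in clone 8, beside 10.4% and 8.11%. Phlda2, an imprinted paralog of Phlda3, went from 8.51 ± 1.65 CPM at 0h (SD, n = 3) to 46.6 ± 20.5 at 2h, 42.2 ± 29.3 at 4h and 57.9 ± 18.4 in rev (SD, n = 4 each), a change of 2.15 in 2h vs 0h (adjusted p = 0.000122, SE 0.25, edgeR). Phlda1 was higher at 2h as well (2.85 vs 0h, adjusted p = 0.0195, SE 0.66), a call lost without 0h clone4_1 or 2h clone8_1, and its rev vs 0h call (2.73) was lost without 0h clone4_1 or rev clone8_2 (adjusted p up to 0.149). Without the clone covariate neither was called. Cdkn1c was not called under total count scaling in these 3 comparisons (adjusted p of 0.219 to 0.282). Cdkn1c, which encodes the p21 relative p57, rose from a mean of 16.8 CPM at 0h to 30.1 ± 6.63 CPM at 2h (0.90, SE 0.15, adjusted p = 0.000617) and was at 31.3 ± 7.86 CPM in rev. Trp73, the p53 paralog, was lower in 4h vs 0h (-0.85, SE 0.19) and rev vs 0h (-1.06, SE 0.19).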
